A study of Sus scrofa with 8 samples.

Results

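Heat shock proteins and endoplasmic reticulum (ER) chaperones were measured in whole blood from 8 female miniature pigs of the Clawn strain, 4 on each of 2 diets, with 1 array per animal. The members were the non-control probes whose description held "heat shock" or "DnaJ", together with those named HSPA5 or HSP90B1. They numbered 44 of the 43603 non-control probes of the array and stood for 24 named pig genes, besides names taken from proteins of other organisms and copies that could not be settled. The control animals ate standard dry feed. The SDW animals ate dry feed, water and shochu distilled water, the residue of shochu distillation, in equal parts by weight. All were labelled conventional and were 8 to 9 months old. The design text places blood sampling at 12 weeks of feeding, whereas the individual descriptions give 14, 15, 16 and 17 weeks for the replicates of each diet. Blood was taken into PAXgene tubes, which fix RNA at the moment of sampling. The arrays are therefore of mixed blood cells, in which fewer cells of a type and less RNA per cell cannot be told apart.

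Heat shock proteins are molecular chaperones, named by the approximate mass of the protein. Small heat shock proteins hold unfolding proteins without using ATP. DnaJ proteins, the 40 kDa class, bring clients to the 70 kDa class and stimulate its ATPase. HSP90 completes the folding of kinases and steroid receptors, and HSPE1 is the lid of the mitochondrial HSP60 chamber. HSPA5 (BiP) and HSP90B1 (GRP94) do the work of the 70 and 90 kDa classes inside the ER. Heat and misfolded protein release heat shock factor, which switches on the cytosolic genes, and misfolding in the ER switches on HSPA5 and HSP90B1 by a separate pathway.

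Each probe was a strand of 60 bases. The 7 below are printed as examples: 1 for the small class, 1 DnaJ member, 2 of the 70 kDa class, and 3 that lie along the same HSP90AA1 transcript. Of those 3, the probes at bases 568 and 658 moved together and that at base 1899 did not follow them. The number after each name is the base of the transcript at which the array's design places the start of the probe. Each held at least 1 reading frame without a stop codon, and their GC content ran from 38.3% in HSP90AA1 at base 568 to 55% in HSPB1 and HSP70.2. Sequences are as the scanner files give them, and no genome position is given because the files leave these probes unmapped.
HSPB1 379: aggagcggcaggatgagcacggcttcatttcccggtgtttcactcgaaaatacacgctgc
DNAJC21 535: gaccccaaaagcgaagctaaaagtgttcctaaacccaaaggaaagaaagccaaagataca
HSP70.2 1775: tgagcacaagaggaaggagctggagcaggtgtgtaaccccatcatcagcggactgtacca
HSPA5 1489: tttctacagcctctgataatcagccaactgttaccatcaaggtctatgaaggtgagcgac
HSP90AA1 568: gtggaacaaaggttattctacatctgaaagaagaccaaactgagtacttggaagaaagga
HSP90AA1 658: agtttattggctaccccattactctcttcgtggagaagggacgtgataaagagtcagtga
HSP90AA1 1899: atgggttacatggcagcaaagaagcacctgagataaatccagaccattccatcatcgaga

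Levels are log2 signals relative to the 75th percentile of the animal's own array, so that 0 is the 75th percentile and 1 unit is a doubling. Of the 44 members, 32 had a signal well above background in 4 or more animals and entered the tests, standing for 20 named pig genes. An array had 35.2% to 43.6% of its probes well above background, and no spot was saturated. The 8 arrays lay on 3 slides. Slide 1 held control 3, SDW 2 and SDW 3, slide 2 held control 2, control 4 and SDW 1, and slide 3 held control 1 and SDW 4. Slide 3 was scanned on another day than the other slides, so that slide and scan day cannot be told apart. Animals carry the replicate number of their scanner file. In 7 of the 8 columns of the deposited value table, the values were those of another replicate's file of the same diet, so the number of an animal, and with it the weeks of feeding, is uncertain, while its diet is not. The blood cell markers were present: 4 of 4 neutrophil, 4 of 4 monocyte, 4 of 4 platelet and 6 of 7 T cell genes on the array passed the background filter. Of 8 red cell genes listed, 1 was matched to a probe by name, and it did not pass. Red cell probes under other names were not examined here.

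SDW feeding was not accompanied by a detectable change in any chaperone. With limma and Benjamini-Hochberg adjustment over the 17353 probes tested, 0 of 32 members passed an adjusted p of 0.05, and the background was 0% (0 of 17353). The smallest adjusted p of a member was 0.9999. At an unadjusted p of 0.05, 0 of 32 passed, against 1.45% of all probes tested, and for 0 of 32 did the 4 SDW animals lie wholly above or wholly below the 4 controls, against 0.985%. The value was higher in SDW animals for 23 of 32 members and lower for 9, whereas 52.9% of all probes were higher. The median difference, SDW minus control, was 0.11 on the log2 scale for the members and 0.02 for all probes. The members' median moved with single animals, to -0.01 without SDW 2, 0.02 without control 1, 0.04 without control 4 and 0.23 without control 3. With slide as a block it was 0.04, and within slides it was -0.07 on slide 1, 0.11 on slide 2 and 0.08 on slide 3. The difference had the same sign on all 3 slides for 8 of 32 members (25.0%), against 27.7% of all probes.

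The size of change that could be seen was limited by the spread between animals. The 95% confidence interval of the diet difference had a median half-width of 0.67 over the members and of 0.67 over all probes. The narrowest half-width was 0.46 and the widest was 1.23. For 22 of 32 members the interval lay inside a doubling and a halving, and 27 of 32 differences were smaller than 0.3. The shares of all probes were not counted for these, so neither is shown to be particular to the members. The median absolute difference was 0.15 for the members and 0.17 for all probes. Only HSPA1L differed by at least 1, a size reached by 1.10% of all probes. The median SD within a diet was 0.42 for the members and 0.43 for all probes.

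**Figure D1:**
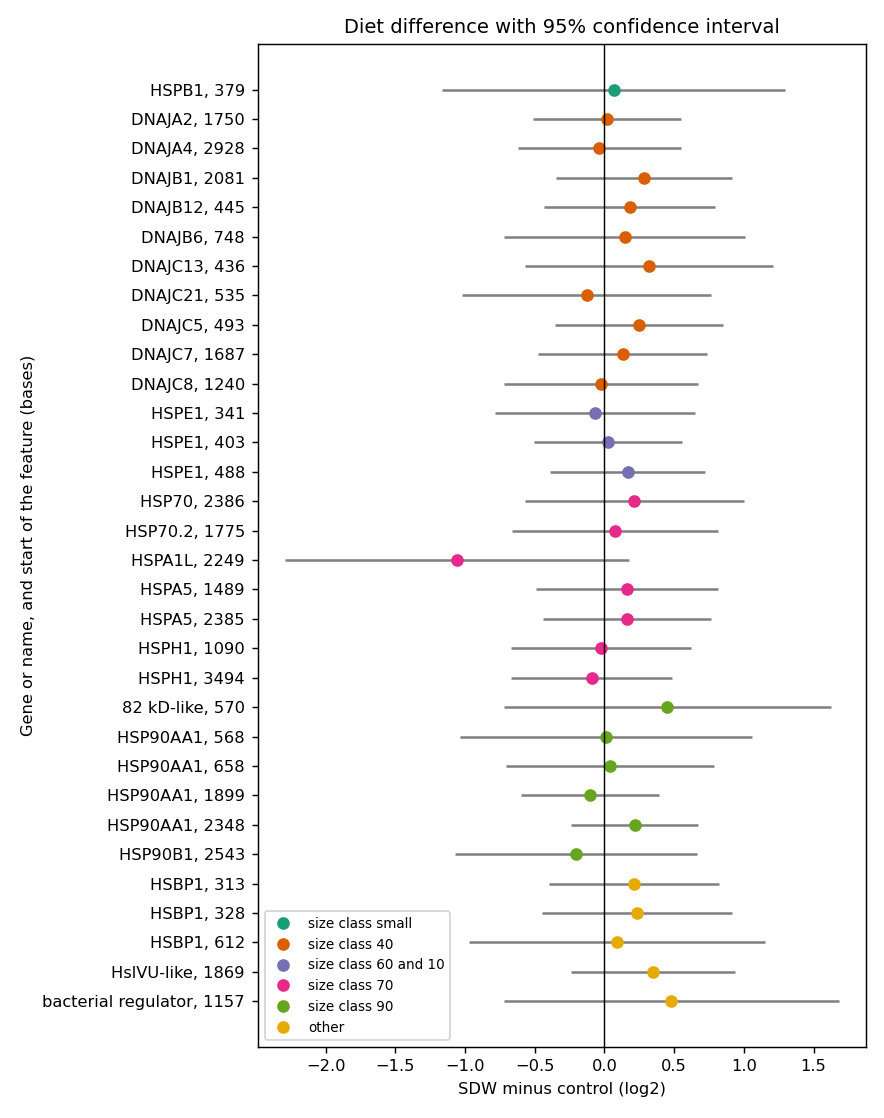
SDW minus control on the log2 scale for the 32 chaperone probes tested, by gene and start of the probe in its transcript. Points are limma estimates coloured by size class and bars are 95% confidence intervals (4 animals against 4). Every interval crosses 0, and HSPA1L, at -1.05, lies farthest from it.

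Of the small heat shock proteins, HSPB1 (HSP27), which binds unfolding proteins and actin, was measured. Its levels were 5.30, 3.62, 3.59 and 3.44 in control animals 1 to 4 and 2.78, 3.76, 4.75 and 4.92 in SDW animals 1 to 4. Control 1 was the highest and SDW 1 the lowest of the 8, and the ranges of the diets overlapped. The difference was 0.07 ± 0.55 (SE, 4 animals against 4; limma adjusted p = 0.9999), and it ran from -0.22 without SDW 4 to 0.51 without control 1. HSPB7, a small heat shock protein of heart muscle, was not well above background in any animal.

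The DnaJ class had 10 of 15 probes measured, with 7 higher and 3 lower values in SDW animals and a median difference of 0.14. DNAJC8, a spliceosome-associated member, had levels of 4.69, 4.92, 5.68 and 4.997 in control animals 1 to 4 and 4.98, 5.62, 5.12 and 4.46 in SDW animals 1 to 4. Control 3 and SDW 2, both on slide 1, were highest. The diet difference was -0.03 ± 0.31 (SE), and its sign turned under scaling to the array median (0.01) and with another background correction (0.05). It ran from -0.22 without SDW 2 to 0.17 without control 3.

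DNAJB1 (HSP40), the classical heat-inducible partner of HSP70, had levels of 3.73, 3.44, 3.19 and 2.72 in control animals 1 to 4 and 3.73, 3.45, 3.14 and 3.89 in SDW animals 1 to 4. Control 4 was the lowest and the other animals overlapped. The difference was 0.28 ± 0.28 (SE; limma adjusted p = 0.9999), and it ran from 0.10 without control 4 to 0.44 without control 1. A second DNAJB1 probe, at base 1207, was not well above background in any animal.

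DNAJC5, the cysteine string protein of secretory vesicles, had levels of 0.53, 0.08, 0.41 and 0.25 in control animals 1 to 4 and 0.27, 0.17, 0.64 and 1.17 in SDW animals 1 to 4. SDW 3 and SDW 4 exceeded every control, and SDW 1 and SDW 2 lay among them. The difference was 0.25 ± 0.27 (SE). It ran from 0.04 without SDW 4 to 0.38 without SDW 2, and it was 0.06 with normexp background correction.

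DNAJC21, a factor of ribosome maturation in the cytosol and nucleolus, had levels of -1.19, 0.01, 0.40 and 0.11 in control animals 1 to 4 and -0.24, 0.28, -0.14 and -1.09 in SDW animals 1 to 4. The low animal of each diet was the one on slide 3. The diet difference was -0.13 ± 0.40 (SE), and it ran from -0.47 without control 1 to 0.14 without SDW 4.

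DNAJA4, a farnesylated cytosolic member, had levels of -1.55, -1.25, -0.97 and -1.42 in control animals 1 to 4 and -0.87, -1.16, -1.72 and -1.60 in SDW animals 1 to 4, a difference of -0.04 ± 0.26 (SE) that ran from -0.19 without SDW 1 to 0.09 without SDW 3. The diets overlapped throughout. The remaining DnaJ probes measured, for DNAJC7, DNAJA2, DNAJB12, DNAJB6 and DNAJC13, differed by 0.02 to 0.32.

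HSPE1, the 10 kDa co-chaperonin of mitochondria, was read by 3 probes. At base 403 its levels were 5.19, 5.51, 5.43 and 5.11 in control animals 1 to 4 and 5.39, 5.78, 5.07 and 5.11 in SDW animals 1 to 4. All 8 animals lay within 1 unit of each other, and the diets overlapped. The difference was 0.03 ± 0.24 (SE), and it was -0.004 with another background correction. It ran from -0.12 without SDW 2 to 0.12 without SDW 3. The probe at base 488 gave 0.17 ± 0.25 and that at base 341 gave -0.07 ± 0.32, so the sign was not shared by the 3 probes. Probes for HSP60 itself (HSPD1) did not fall under the rule.

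In the 70 kDa class 7 of 10 probes were measured, 4 with a higher and 3 with a lower value in SDW animals, and the median difference was 0.08. The heat-inducible HSP70 genes are near-identical copies, so the copy behind each signal is uncertain. The HSP70 probe at base 2386 had levels of 0.47, 1.07, 0.95 and 0.28 in control animals 1 to 4 and 1.22, 1.60, 0.07 and 0.75 in SDW animals 1 to 4. The SDW animals held both the highest and the lowest value. The difference was 0.22 ± 0.35 (SE), and it ran from -0.01 without SDW 2 to 0.49 without SDW 3. For the HSP70.2 copy at base 1775 it was 0.08 ± 0.33.

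HSPA1L, a testis-enriched relative of inducible HSP70 encoded beside it, had the largest diet difference of the members. Its levels were 0.004, -1.69, -1.91 and -2.56 in control animals 1 to 4 and -2.76, -2.30, -3.56 and -1.75 in SDW animals 1 to 4. Control 1, on slide 3, was the highest, and 3 of the 4 SDW animals lay below 3 of the 4 controls, with SDW 4 among the controls. Its signal cleared the background in only 2 animals of each diet. The difference was -1.05 ± 0.55 (SE; limma adjusted p = 0.9999), and it ran from -1.39 without control 4 to -0.54 without control 1. With normexp background correction it was -0.18. It was negative on each slide, at -1.02, -0.63 and -1.75. With slide as a block it was -1.08 ± 0.36 (SE), and HSPA1L was then the 1 of 32 members with an unadjusted p under 0.05, against 6.59% of all probes, at a limma adjusted p of 0.732. With the replicate number of the value table as a block it was again the 1 member of 32, against 5.21% of all probes.

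HSPH1 (HSP110), a nucleotide exchange factor for HSP70, had levels of 0.34, 0.41, 0.70 and 0.79 in control animals 1 to 4 and 0.17, 0.83, 0.08 and 0.80 in SDW animals 1 to 4 at base 3494. SDW 1 and SDW 3 lay below every control and SDW 2 and SDW 4 above every control. The difference was -0.09 ± 0.26 (SE), from -0.21 without SDW 2 to 0.04 without SDW 3, and at base 1090 it was -0.03 ± 0.29. HSPA4 and HSPA4L, relatives of HSPH1, were not well above background in any animal.

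HSP90AA1, the inducible cytosolic HSP90, was read by 4 probes. Its paralog HSP90AB1 is similar in sequence, and whether a share of the signal comes from it was not tested. At base 658 the levels were 6.58, 7.56, 7.78 and 6.96 in control animals 1 to 4 and 7.20, 7.76, 7.40 and 6.67 in SDW animals 1 to 4. The low animal of each diet was again the one on slide 3. The diet difference was 0.04 ± 0.34 (SE), and -0.07 with slide as a block. It ran from -0.17 without control 1 to 0.23 without SDW 4. The other probes gave 0.01 ± 0.47 at base 568, -0.10 ± 0.22 at base 1899 and 0.22 ± 0.20 at base 2348.

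The ER chaperones were measured by 4 of 4 probes and their median difference was 0.16. HSPA5, the ER member of the 70 kDa class, had levels of 3.49, 3.22, 3.19 and 2.71 in control animals 1 to 4 and 3.37, 3.78, 2.88 and 3.22 in SDW animals 1 to 4 at base 2385. The diets overlapped, with SDW 2 highest and control 4 lowest. The difference was 0.16 ± 0.27 (SE), the same as at base 1489 (0.16 ± 0.29), and it ran from 0.003 without SDW 2 to 0.30 without SDW 3.

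HSP90B1, the ER member of the 90 kDa class, had levels of 4.67, 5.33, 5.30 and 4.79 in control animals 1 to 4 and 4.83, 5.94, 4.26 and 4.24 in SDW animals 1 to 4. SDW 2 was the highest of the 8 and SDW 3 and SDW 4 the lowest. The difference was -0.20 ± 0.39 (SE), and it ranged from -0.58 without SDW 2 to -0.01 without SDW 4. DNAJB12, a DnaJ protein anchored in the ER membrane, differed by 0.18 ± 0.27.

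Members outside the size classes comprised HSBP1, a small protein that binds heat shock factor, and probes named after proteins of other kingdoms. HSBP1 at base 328 had levels of 2.99, 3.52, 3.73 and 3.31 in control animals 1 to 4 and 4.04, 4.03, 3.47 and 2.94 in SDW animals 1 to 4. SDW 1 and SDW 2 exceeded every control, and SDW 4 lay below every control. The difference was 0.24 ± 0.30 (SE), and it ran from 0.10 without SDW 1 to 0.46 without SDW 4. The probe at base 313 shares 45 of its 60 bases with it, so the 0.21 ± 0.27 it gave is no separate measurement.

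The sequence described after the HslVU ATPase subunit of a trypanosome had levels of 3.20, 3.41, 3.27 and 2.46 in control animals 1 to 4 and 3.72, 3.39, 3.24 and 3.38 in SDW animals 1 to 4. Control 4 alone was low. The difference was 0.35 ± 0.26 (SE), and it ran from 0.14 without control 4 to 0.46 without control 2. The pig gene behind this probe is not settled, since the match covers 4% of that protein.

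The sequence described after a bacterial regulator of heat shock genes had levels of -3.63, -2.72, -3.19 and -2.15 in control animals 1 to 4 and -1.69, -2.34, -1.67 and -4.07 in SDW animals 1 to 4. SDW 4 was the lowest of all and SDW 1 and SDW 3 the highest, and the signal cleared the background in 1 control and 3 SDW animals. The difference was 0.48 ± 0.54 (SE). It was 0.22 without SDW 3, 0.23 without SDW 1, 0.25 without control 1, 0.74 without control 4 and 1.02 without SDW 4, and 0.11 with normexp background correction.

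The sequence described after an 82 kD heat shock protein, counted with the 90 kDa class, had levels of 1.23, -0.03, 0.42 and -0.24 in control animals 1 to 4 and 0.18, -0.15, 0.88 and 2.28 in SDW animals 1 to 4. The high animals were those on slide 3. The difference was 0.45 ± 0.52 (SE). It ran from -0.04 without SDW 4 to 0.77 without SDW 2, and it was 0.26 with normexp background correction.

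**Figure D2:**
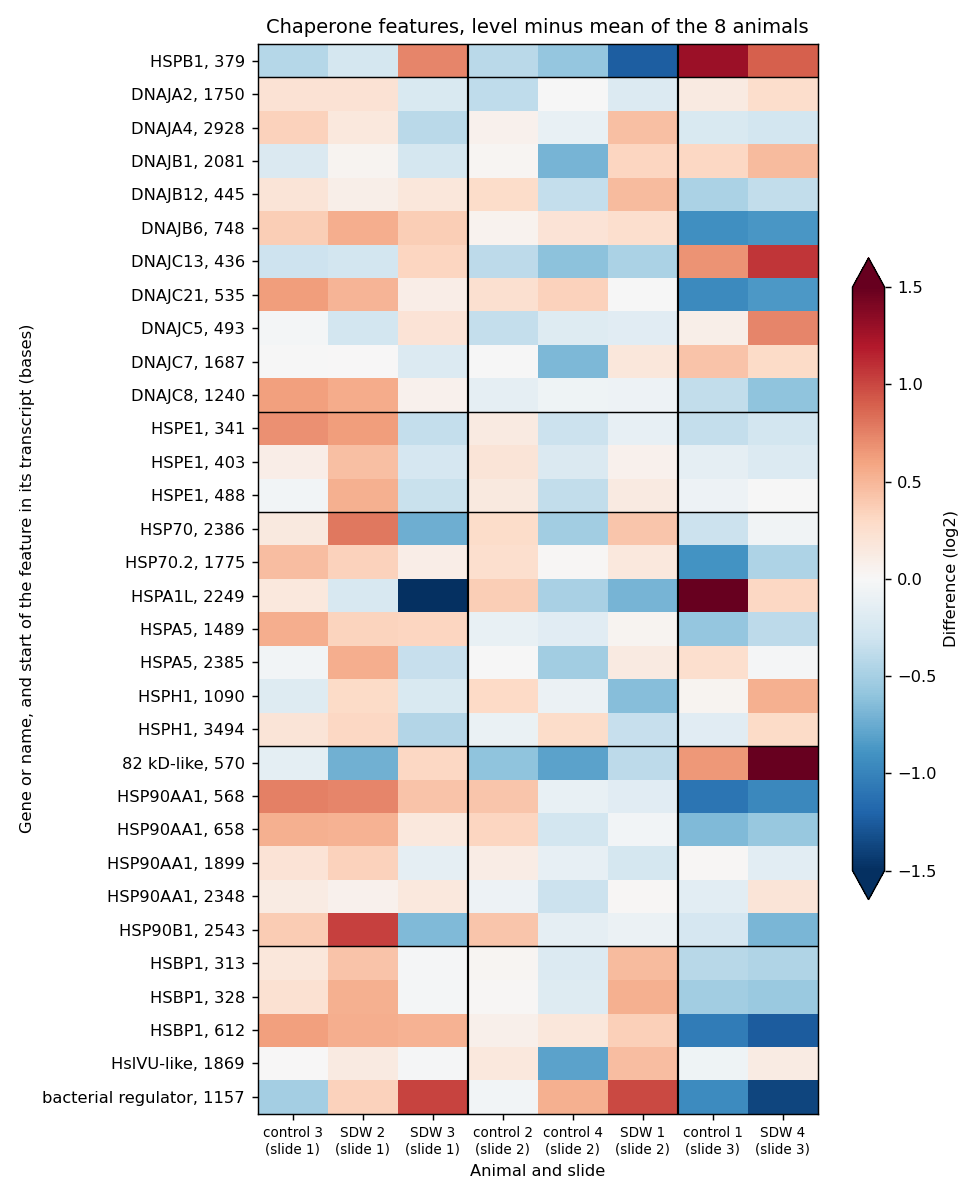
Level of the 32 chaperone probes in each animal minus the mean of the 8 animals (log2, colour), with animals in columns ordered by slide and probes in rows by size class. The slide 3 columns, control 1 and SDW 4, are blue for DNAJC21, DNAJB6 and HSP90AA1 at base 568 and red for HSPB1, DNAJC13 and the 82 kD name. In SDW 2 the median member stood 0.35 above its mean.

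Several chaperones differed between slides, whichever the diet. With diet in the fit, limma's F test of the slide terms passed an adjusted p of 0.05 for 8 of 32 members (25.0%), against 11.2% of all probes. Of these, 3 were higher on slide 3 (5.56% of all probes) and 5 were lower (5.66%). With the names of other kingdoms or invertebrates left out, 6 of 29 members passed, against the same 11.2% of all probes. For 16 of 32 members both slide 3 animals lay outside the range of the other 6, against 32.7% of all probes. They lay above it for 4 members (15.7% of all probes) and below it for 12 (17.0%). A median of 53.2% of a member's variance lay between slides and 4.58% between diets, compared with 44.8% and 4.97% for all probes. The count fell when most single animals were left out. Of 32 members, 0 passed without control 1 (2.03% of all probes), 0 without SDW 4 (5.82%), 2 without control 2 (5.66%), 3 without control 3 (6.88%), 4 without control 4 (7.59%) and 4 without SDW 1 (8.07%). Without SDW 2 there were 7 (10.6%) and without SDW 3 there were 8 (10.5%).

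HSPB1, DNAJC13 (an endosomal DnaJ protein) and the 82 kD name were higher on slide 3. HSPB1 exceeded the mean of the other animals by 1.46 (adjusted p = 0.0465), with control 1 and SDW 4 the highest of the 8. For DNAJC13 the levels were 1.29 in control 1 and 1.69 in SDW 4, and 0.00 to 0.94 in the other 6 (adjusted p = 0.037). The 82 kD name was higher by 1.57 (adjusted p = 0.037). HSPA1L stood 1.59 higher on slide 3 but did not pass (adjusted p = 0.066).

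DNAJB6, a DnaJ protein that holds aggregation-prone proteins, had levels of -0.61 in control 1 and -0.57 in SDW 4 against 0.36 to 0.85 in the other 6 (adjusted p = 0.021). DNAJC21 was 1.21 lower on slide 3 (adjusted p = 0.027) and HSP90AA1 at base 568 was 1.38 lower (adjusted p = 0.016). HSBP1 at base 612 had levels of -1.88 and -2.07 on slide 3 and -0.75 to -0.22 on the others (adjusted p = 0.009), and it was well above background in 3 animals of each diet. The bacterial regulator name was 1.55 lower (adjusted p = 0.048). For these 5, slide 3 and the rest did not overlap. The slide test picked the probes from the same values, so the separation is no further support.

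**Figure D3:**
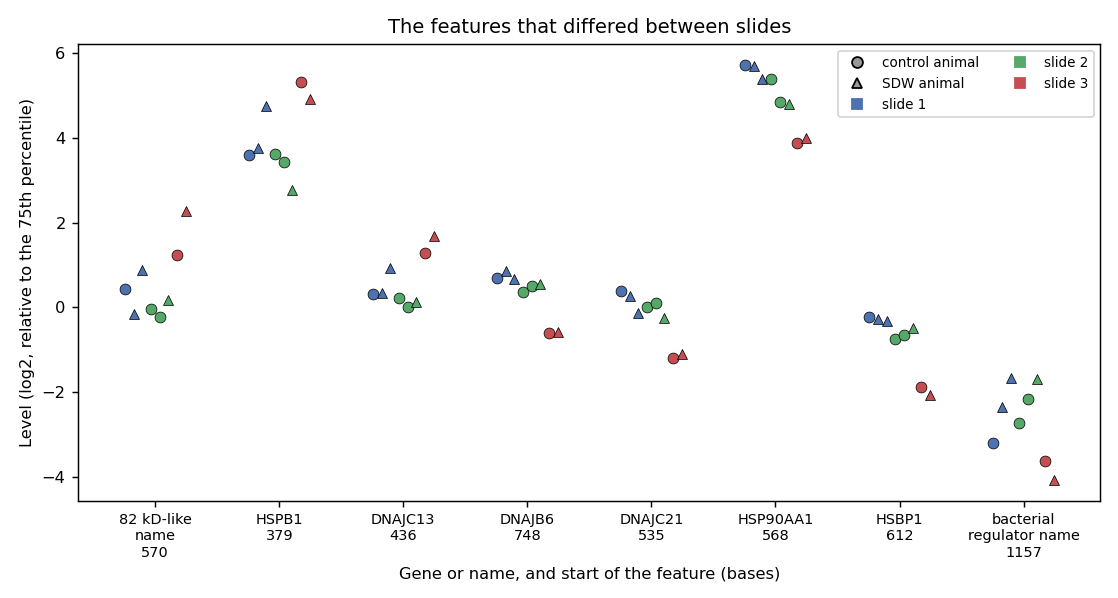
Levels (log2, relative to the 75th percentile of the array) in the 8 animals for the 8 chaperone probes that differed between slides. Circles are control and triangles SDW animals, and colour marks the slide. Both slide 3 animals lie outside the other 6 in each of the 8 probes, which the slide test picked from these same values.

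The call depended on the processing. With normexp background correction 1 of 32 members passed, HSP90AA1 at base 568 (4.31% of all probes), and with normexp and quantile normalization 5 passed (9.17%). With the authors' own values 7 passed (11.7%). Percentiles taken over the probes detected on all 8 arrays left 4 (7.58%), and array weights gave 13 (24.8%). The direction moved with the scaling too: 3 higher and 5 lower became 1 higher and 6 lower when arrays were scaled to their median, where 29.8% of all called probes were higher on slide 3, against 49.6% with the 75th percentile, and 0 higher and 4 lower with percentiles over the probes detected on all arrays. HSPB1 did not pass with array-median scaling, quantile normalization, normexp or the authors' values.

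For HSP90AA1 and HSPA5, probes of the same transcript differed in how they stood on slide 3. Of these probes only HSP90AA1 at base 568 passed the slide test. The limma adjusted p of that test was 0.094 for HSP90AA1 at base 658. For HSPA5 it was 0.101 at base 1489 and 0.876 at base 2385. HSP90AA1 at base 568 had levels of 3.87 in control 1 and 3.99 in SDW 4 on slide 3, and 4.79 to 5.72 in the other 6. At base 2348 the same slide 3 animals had 3.89 and 4.24 and the others 3.73 to 4.21. The probe at base 568 therefore stood 1.38 lower on slide 3, whereas that at 2348 stood 0.02 higher. Taken within each array, the level at base 568 minus that at 2348 was -0.02 in control 1 and -0.25 in SDW 4 and between 0.72 and 1.58 in the other 6. The probe at 658 behaved likewise, at 2.69 and 2.43 against 3.14 to 3.64. That at 1899 gave -0.76 and -1.28 against -1.23 to -0.65, without separation. Base 568 minus base 658 also separated, at -2.71 and -2.68 on slide 3 against -2.415 to -2.005.

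HSPA5 showed the same order by a narrow margin. The level at base 1489 minus that at 2385 was -5.13 and -4.67 on slide 3 and -4.51 to -3.62 on the others. The probe at base 1489 was near background, and well above it in only 3 of the 4 controls. HSPH1 did not show this order, with -2.14 and -2.11 on slide 3 inside the range of -2.73 to -1.95 of the others. For HSPE1, base 403 minus base 488 gave 1.73 and 1.88 on slide 3 against 1.85 to 2.09, without separation. Base 341 minus base 403 gave -2.70 and -2.55 against -2.67 to -1.90, again without separation. The outermost HSPE1 pair did separate, narrowly and in the order of HSPA5. There base 341 minus base 488 gave -0.83 and -0.82 on slide 3 against -0.80 to 0.18. For HSBP1, base 328 minus base 612 was 4.87 and 5.02 on slide 3 against 3.78 to 4.52. Those bases are counted on different reference sequences, so which HSBP1 probe lies upstream is not known. The overlapping HSBP1 probes separated slide 3 too, with base 313 minus base 328 at -0.34 and -0.33 against -0.54 to -0.42. Over 127 other transcripts with 2 measured probes at least 500 bases apart, 45.7% had the upstream probe lower on slide 3 relative to the downstream one, with a median shift of 0.17 towards the upstream probe. By array, the median of upstream minus downstream, centred on each transcript's mean, was 0.14 in control 1 and 0.20 in SDW 4. In the other animals it ran from -0.41 in SDW 1 to 0.16 in SDW 3. How often slide 3 lay outside the other 6 over all probe pairs was not counted, and for single probes it did so in 32.7%. Whether these pairs are unusual is therefore not known. No cause was tested.

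**Figure D4:**
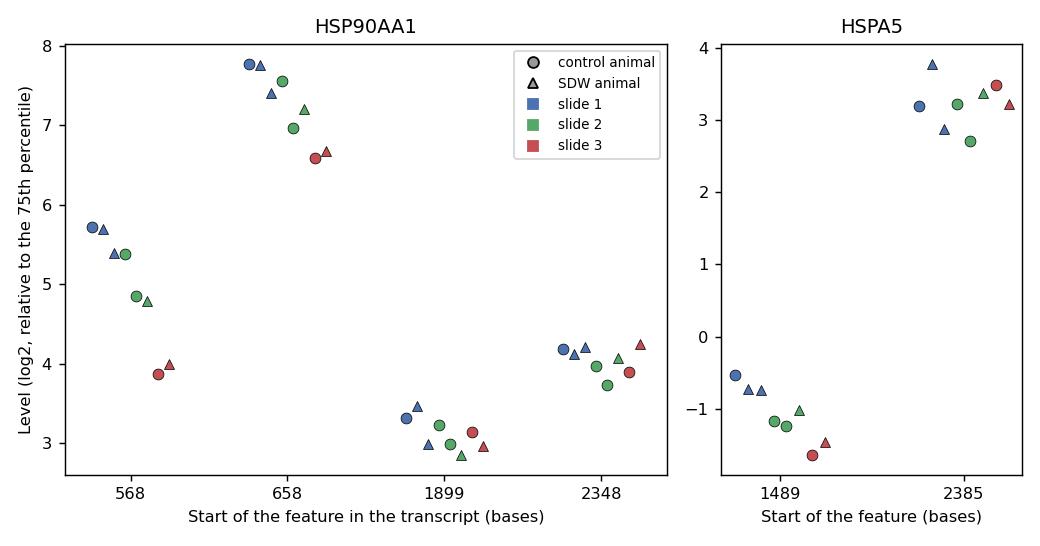
Levels (log2, relative to the 75th percentile of the array) of 4 HSP90AA1 probes and 2 HSPA5 probes in each animal, by start of the probe in the transcript. Circles are control and triangles SDW animals, and colour marks the slide. Slide 3 is lowest at bases 568, 658 and 1489 and mingles with the others at 1899, 2348 and 2385.

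Among animals, SDW 2 and control 3, both on slide 1, each had the highest level for 8 of 32 members, whereas they were highest for 13.3% and 12.6% of all probes. Control 4 was lowest for 8 members (21.6% of all probes) and control 1 for 7 (19.2%). The median member stood 0.35 above its mean in SDW 2 and 0.20 below it in control 4, and SDW 2 also had the most probes well above background.

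Genes that work with the chaperones did not separate the diets either, with 0 called in each list. Of the co-chaperones, 3 of 22 listed were measured, 1 higher and 2 lower: CHORDC1 differed by -0.16, FKBP5, a steroid receptor co-chaperone, by -0.07, and CDC37, the kinase adaptor of HSP90, by 0.02. Of 31 genes of ER folding and stress 4 were measured, 3 higher and 1 lower, with EIF2AK3 (PERK), an ER stress sensor, at 0.16 and CALR, a lectin chaperone, at -0.08. CCT2, of the cytosolic chaperonin, differed by 0.09, and the mitochondrial GRPEL1 and AFG3L2 by 0.06 and 0.07.

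Cell type markers were set beside these values. All 4 neutrophil genes measured had a lower value in SDW animals, with a median of -0.76, and a median of 1.08 higher on slide 3, from 0.06 for ALOX5AP to 2.30 for NCF1, the direction of HSPB1, DNAJC13 and HSPA1L. LCP1, a leukocyte actin bundler, was 1.47 lower on slide 3. Platelet genes were 0.04 to 1.07 lower on slide 3. Monocyte genes went in both directions on slide 3, with 1.33 for CD14, 0.30 for CD68, -0.37 for CCR2 and -0.41 for CD163. T cell genes ran there from -1.29 for CD8A to 1.32 for CD3E. Between diets none of the markers named here passed the adjusted test. The monocyte receptor CCR2 had a value 0.88 higher in SDW animals, all 4 above every control, and the cytotoxic granule gene GNLY had a value 0.71 lower. The other monocyte genes measured differed by -0.73 for CD14, 0.07 for CD68 and 0.10 for CD163, and the NK gene KLRK1 by -0.57. The part of cell composition in the chaperone values was not tested.

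Of the 44 members, 12 were not tested. DNAJC4, HSP70.2 at base 342, DNAJA4 at base 373, the HSP90-like contig and the HSP90 name of a nematode, besides those already named, were not well above background in any animal. DNAJA2 at base 484 was so in 1 control and the fungal Hlj1 name in 1 SDW animal. The name of a plant heat shock factor was so in 1 control and 1 SDW animal.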

How the data were processed

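Single-colour (Cy3) Agilent arrays of 60-base probes carried amplified whole blood RNA, 1 animal each. The deposited intensity values were made by the authors with Agilent's Feature Extraction (10.1.1.1 per the file headers, 9.5.3.1 per the submitters' processing notes) and are background-subtracted processed signals. The authors' value table, of the same intensity, was an alternative. Outlier spots were left out, spots of a probe averaged on the log2 scale and the array's 75th percentile subtracted. Probes well above background on at least 4 of 8 arrays were tested with limma 3.58.1 (R 4.3.3), control against SDW, with Benjamini-Hochberg adjustment at 0.05; the pipeline was tested on simulated data. Slide was tested with diet in the fit. Members, classes and lists were chosen with earlier results of these data known. Values per animal are given for the highest-level gene of each class, HSPA5, HSP90B1, the 5 genes of smallest p in each direction and the 4 of largest spread; a gene is read from its measured probe of highest level. Cytosolic or ER place is textbook knowledge. Deviations of animals with the same number in the value table correlated at 0.252 to 0.645. Of these pairs 3 of 4 shared a slide, and the lowest value was that of the other pair. With the labels' own numbers the correlations ran from -0.379 to 0.333, the highest for control 3 and SDW 3, both on slide 1. Pairing by number and sharing of a slide cannot be told apart. Nothing in the labels says more of the animals' litters or pens. Array number limits precision.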

Additional observations from a re-analysis of the deposited data

Results flagged for a closer look

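Of 64 groups of 4 animals examined (32 members in each diet), 2 (3.12%) held an animal far from the other 3 of its diet, against 5.82% over all probes tested; chance flags about 1 in 20. HSPB1 was at 5.30 in control 1 and between 3.44 and 3.62 in the other controls. HSBP1 at base 612 was at -2.07 in SDW 4 and between -0.48 and -0.28 in the other SDW animals. Both animals were on slide 3, and the cause was not tested.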

How the results depend on the processing

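No alternative tried gave an adjusted diet call among the members; over all probes, leaving out slide 3 gave 1 and every other setting 0. The median difference kept its sign under all scalings, blocks and filters (0.04 to 0.16), and ran from -0.01 to 0.23 when 1 animal was left out, and from -0.07 to 0.11 within slides. Members at an unadjusted p under 0.05 were 1 of 44 with no filter on dim probes (1.89% of all probes), 1 of 32 with slide as a fixed (6.59%) or random block (3.64%), 1 without slide 3 (3.13%) and 1 with the value table's number as replicate block (5.21%), against 0 otherwise; leaving out 1 animal gave 0 to 2, the latter without SDW 4 (2.99%). The replicate block on the labels' number gave 0 and changed no call. The slide count of 8 (11.2% of all probes) became 1 with normexp and the 75th percentile (4.31%), 5 with normexp and quantile (9.17%), 2 of 44 with no filter (2.99%), 0 without slide 3 (0%), 13 with array weights (24.8%), 4 with percentiles over probes detected on all arrays (7.58%; added after seeing the data) and 0 to 8 when 1 animal was left out. Signs turned for DNAJC8 with the array median (0.0077) and normexp (0.0506), HSPE1 with normexp (-0.0042), and HSP90AA1 (-0.0676) and HSPB1 (-0.13) with slide as a block. Leaving out 1 animal, the lowest and highest values were -0.17 and 0.23 for HSP90AA1, -0.12 and 0.12 for HSPE1, -0.22 and 0.17 for DNAJC8, -0.22 and 0.51 for HSPB1, -0.0134 and 0.49 for HSP70, -0.0403 and 0.77 for the 82 kD name, -0.21 and 0.038 for HSPH1, -0.47 and 0.14 for DNAJC21 and -0.19 and 0.0904 for DNAJA4. Leaving out the names of other kingdoms or invertebrates was also added after seeing the data. It gave a median difference of 0.08 and a slide count of 6 of 29 (11.2% of all probes). The cause of these shifts was not tested. Intervals of 0.46 to 1.23 on either side limit what 4 animals a diet can show. Probes near background limit HSPA1L, the bacterial regulator name, HSPA5 at base 1489, HSPH1 at base 1090 and HSBP1 at base 612.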
